A study of Mus musculus with 4 samples.

Results

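Sterol efflux and carriage were followed through 4 genes, Abcg1, Apoe, Apod and Nr1h2, in cultures of mouse dorsal root ganglion (DRG) neurons that received a lentivirus for human PROM1 or a control lentivirus. The genes were taken by their mouse symbols from the descriptions in the deposited table, which gave 6 transcripts of 14236 in all, or 4 genes of 11258. All 6 carry mRNA accessions and none a non-coding accession. Abcg1, Apoe and Apod have 1 listed transcript each, and Nr1h2 has 3.

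Neurons remove excess cholesterol by turning it into oxysterols and by handing it to carriers outside the cell. Oxysterols bind the liver X receptors (LXR), nuclear receptors that pair with retinoid X receptors and switch on exporters and carriers of sterol. Nr1h2 encodes the widely expressed LXR beta, Abcg1 a transporter that moves sterol out of the membrane, Apoe the main apolipoprotein of the nervous system, and Apod a lipocalin that carries small lipids. In peripheral nerve Apoe and Apod are known mostly as products of cells other than neurons, glia and fibroblasts among them, and in rat both accumulate after nerve injury.

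The PROM1 group comprised 2 libraries from cultures given virus carrying human PROM1 (also called CD133), a cholesterol-binding glycoprotein of membrane protrusions. The control group comprised 2 libraries from cultures given the pLKO control virus. Both groups were dissociated embryonic day 13.5 DRG, kept in medium with nerve growth factor, and with fluorodeoxyuridine and uridine to suppress dividing cells, and the virus followed on day 2 in vitro. The labels give neither the mouse strain, nor the promoter and vector backbone that carried PROM1, nor the share of cells that took up virus, and they do not say whether embryos were pooled or whether the sequenced cultures were re-plated. Each condition is described as biological duplicates.

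Polyadenylated RNA over 200 nt was read as single ends, and the values are FPKM, fragments scaled to transcript length and to the mapped total. Library values summed to 357804.6 and 379596.4 FPKM in the PROM1 libraries, and to 361232.1 and 385962.8 FPKM in the control libraries. FPKM carry no read counts, so the depth behind a value is unknown and no counting interval is given. The labelled cell type was matched by its markers, since all 12 sensory neuron markers were listed and together reached 4588 and 5281 FPKM in the PROM1 libraries, against 5388 and 5806 FPKM in the control libraries. Expression of PROM1 was not analysed here, so the overexpression could not be checked in these libraries.

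What a listed transcript stands for differs between the genes, and 2 pairs of sequences show it. RefSeq (GRCm38.p6) gives Nr1h2 4 mRNA accessions, of which 3 are listed. They belong to 2 GENCODE models of 1999 and 1988 bases that share 99.4% of the longer one and differ inside the coding part by 9 bases at a splice acceptor. The listed NM_001285517 belongs to the longer form Nr1h2-201, and both NM_001285518 and NM_001285519 belong to the shorter form Nr1h2-203. The coding stretch that separates the forms is printed here because the Nr1h2 values below are also given by form. It runs 5′ to 3′ on the minus strand of chromosome 7 (GRCm38), and capitals mark the 9 bases that only the longer form holds.
Nr1h2-201: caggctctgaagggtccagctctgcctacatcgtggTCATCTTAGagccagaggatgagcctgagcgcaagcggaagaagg
Nr1h2-203: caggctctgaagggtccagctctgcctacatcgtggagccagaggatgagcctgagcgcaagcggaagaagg

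Apoe has 4 mRNA accessions in RefSeq and 1 of them, NM_001305844, is listed. Its GENCODE model Apoe-205 starts inside the first intron of the model Apoe-206, whose accessions were not analysed here. Both encode the same protein, and 87.4% of the 1221 bases of Apoe-205 also lie in Apoe-206. The 2 starts lie 790 bases apart, and the sequence at each is printed because the listed accession belongs to the model of the inner start. RefSeq gives 3 starts for Apoe, and the inner one was matched through Apoe-205, which also carries NM_001305819, so the exact start of the listed accession is uncertain. Both are RefSeq promoter sequences of build GRCm38.p6 on the minus strand, with 100 bases before the start in lower case and the first 20 transcribed bases in capitals. The first spans chr7:19698379-19698498 and its RefSeq start lies 9 bases inside the GENCODE one. The second spans chr7:19699169-19699288.
Apoe-205: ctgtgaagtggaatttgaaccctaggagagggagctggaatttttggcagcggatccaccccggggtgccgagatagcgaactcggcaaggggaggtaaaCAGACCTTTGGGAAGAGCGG
Apoe-206: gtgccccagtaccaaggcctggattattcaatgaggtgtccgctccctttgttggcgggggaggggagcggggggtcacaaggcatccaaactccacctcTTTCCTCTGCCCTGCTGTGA

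Apod has 3 mRNA accessions in RefSeq, of which NM_001301354 is listed. Its model Apod-202, 1070 bases long, lies wholly within the exons of Apod-203, a model of 2074 bases whose accessions were not analysed here. Abcg1 has a single mRNA accession, NM_009593, and it is listed, so its value alone covers all RefSeq mRNA of its gene. The values of Apoe, of Apod and of each Nr1h2 transcript depend on how Cufflinks divided the reads of shared exons among isoforms. For these genes the listed values are not totals over all RefSeq accessions.

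None of the 4 genes passed the test between PROM1 and control cultures (limma, adjusted p from 0.939 to 0.975), where 0.0198% of 10108 tested genes did. Apod and Nr1h2 were lower in PROM1 cultures on the log2 scale, as were 53.5% of tested genes, and Abcg1 and Apoe were higher, as were 46.5%. The groups did not overlap for Apod alone, whose PROM1 libraries were the lower pair, as for 17.5% of all tested genes. No gene of the 4 had an unadjusted p under 0.05 (limma), where 4.7% of tested genes had, although Apod did without control library 1 (limma unadjusted p = 0.0387) and with the library number as a block (limma unadjusted p = 0.0457). In the authors' deposited table none of the 6 transcripts had a q under 0.05, where 0.126% of all transcripts had. These counts are near the background of all genes. In bulk RNA, fewer cells of a type and less RNA per cell cannot be told apart, which bears on each value here.

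**Figure D1:**
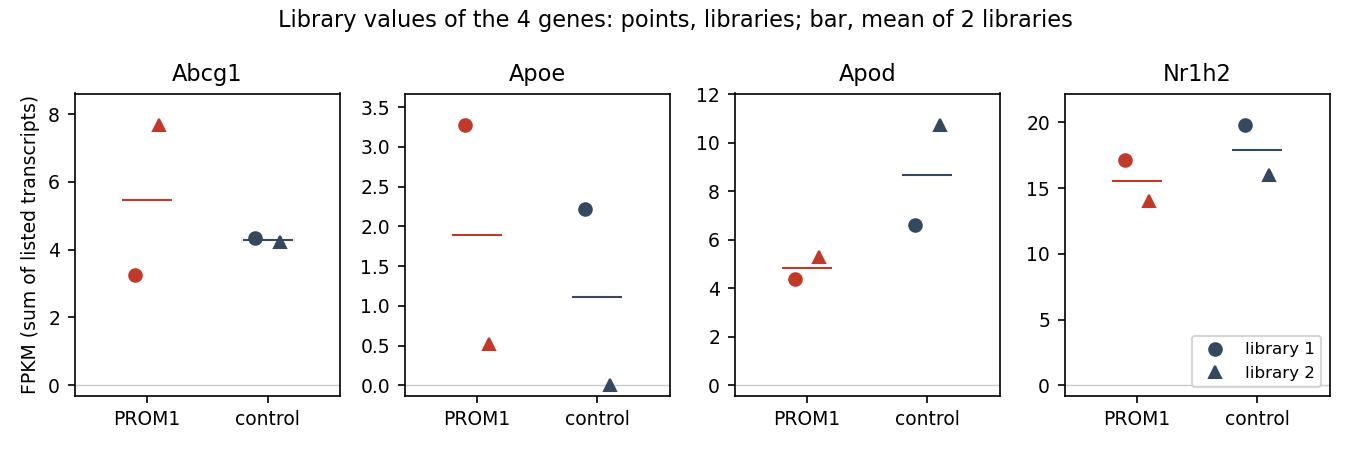
FPKM of Abcg1, Apoe, Apod and Nr1h2 (vertical axes, 1 scale per gene, listed transcripts summed) in the PROM1 libraries (red) and the control libraries (dark blue), with library 1 as circles, library 2 as triangles and the mean of each group as a bar. Apod separates the groups, with 4.38 and 5.31 FPKM in the PROM1 libraries below 6.61 and 10.7 FPKM in the control libraries, while the groups of the other genes overlap.

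Levels per length ran in the order Nr1h2, Apod, Abcg1 and Apoe by their means over the 4 libraries, at 16.7, 6.76, 4.87 and 1.50 FPKM. These means exceeded those of 72.3%, 49.3%, 39.7% and 8.5% of tested genes. They cover listed transcripts alone. Since some RefSeq accessions of Nr1h2, Apod and Apoe were not analysed, the order is not one of gene totals. Nr1h2 was above the other 3 genes in every library. Apod and Abcg1 were not separated, since PROM1 library 2 held more Abcg1 than Apod and the other libraries less. Apoe was the lowest in 3 libraries, while in PROM1 library 1 it had 3.28 FPKM beside 3.24 FPKM of Abcg1.

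Nr1h2, the oxysterol receptor, summed over its 3 listed transcripts to 17.1 and 14.0 FPKM in PROM1 libraries 1 and 2, against 19.8 and 16.0 FPKM in control libraries 1 and 2. In both groups library 1 was the higher, and the groups overlap. The log2 difference was -0.19 ± 0.23 (SE, n = 2 each, limma adjusted p = 0.945), with a 95% confidence interval from -0.77 to 0.39. The difference shrank to -0.04 without control library 1 and to -0.05 without PROM1 library 2, and it was -0.34 without control library 2 and -0.32 without PROM1 library 1.

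The sum of the listed Nr1h2 transcripts was steady, but the FPKM assigned to each of them was not. NM_001285517, the longer coding form, had 13.3 and 0.147 FPKM in PROM1 libraries 1 and 2, against 11.1 and 0.144 FPKM in control libraries 1 and 2. NM_001285519, of the shorter form, had 0.00277 and 13.3 FPKM in the PROM1 libraries, against 1.24 and 15.2 FPKM in the control libraries. NM_001285518, also of the shorter form, had 3.83 and 0.587 FPKM in the PROM1 libraries, against 7.50 and 0.669 FPKM in the control libraries. The leading transcript thus followed the library number in the titles and not the virus. The 2 transcripts of the shorter form went in opposite directions between the libraries numbered 1 and 2. Their GENCODE models share 99.4% of the longer one, and how the reads were divided among these transcripts was not tested.

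By coding form, the shorter one made up 22.4% and 98.95% of the listed Nr1h2 FPKM in PROM1 libraries 1 and 2. Its share was 44.1% and 99.1% in control libraries 1 and 2. The RefSeq accession not analysed here belongs to the longer form, so these are not shares of all Nr1h2 mRNA. The forms differ by the 9 capital bases printed above, and NM_001285518 and NM_001285519 are assigned to the same GENCODE model. How these accessions differ from each other was not measured here. In the fit per transcript, the log2 differences were 0.12 ± 1.80 for NM_001285517, -0.45 ± 1.06 for NM_001285518 and -0.67 ± 1.72 for NM_001285519 (SE, n = 2 each, limma adjusted p from 0.982 to 0.998). These standard errors are 4.63 to 7.83 times that of the summed gene.

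Among 2139 tested genes with more than 1 listed transcript, the same transcript led in all 4 libraries in 855 (40.0%). The leading transcript followed the library number, as in Nr1h2, in 131 genes (6.12%), and the group in 118 genes (5.52%). The authors' deposited table gives Nr1h2 6.06, 2.01 and 6.10 FPKM in the PROM1 group for NM_001285517, NM_001285518 and NM_001285519, against 5.28, 3.94 and 7.45 FPKM in the control group, with q from 0.915 to 0.977. The split between the libraries is not visible in those group values.

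**Figure D2:**
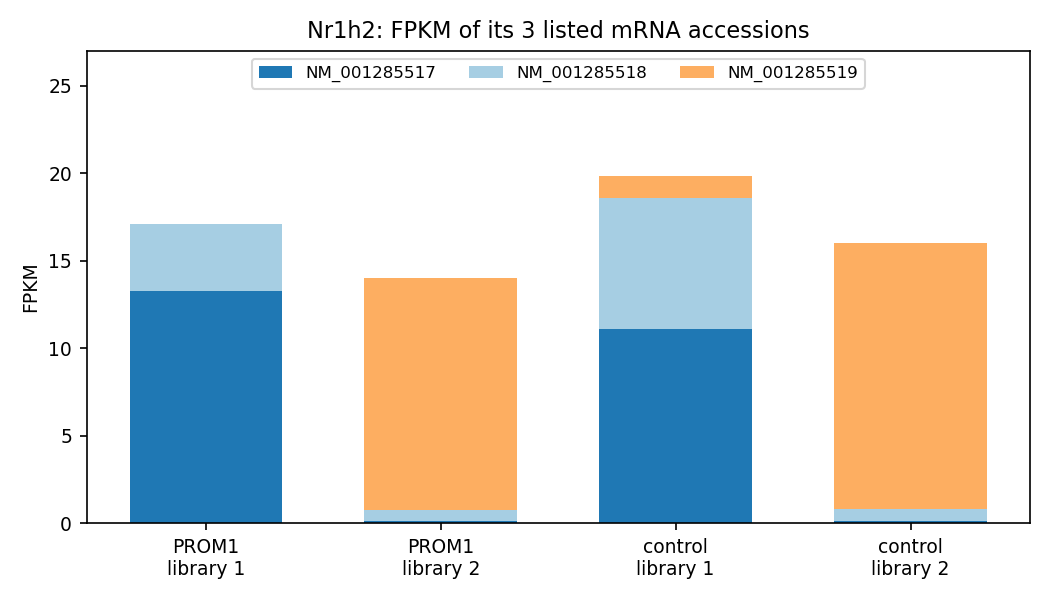
FPKM of the 3 listed mRNA accessions of Nr1h2 (stacked bars, vertical axis) in PROM1 libraries 1 and 2 and control libraries 1 and 2. The summed heights run from 14.0 to 19.8 FPKM, while NM_001285517 leads in both libraries numbered 1 and NM_001285519 in both numbered 2.

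Abcg1, the sterol exporter, had 3.24 and 7.69 FPKM in PROM1 libraries 1 and 2, against 4.33 and 4.22 FPKM in the control libraries. Both control libraries lie between the PROM1 libraries. The control libraries differed by 0.03 on the log2 scale and the PROM1 libraries by 1.03, a gap that 8.1% of tested genes exceeded. The log2 difference was 0.20 ± 0.40 (SE, n = 2 each, limma adjusted p = 0.975), with a 95% confidence interval from -0.79 to 1.20. PROM1 library 2 set its sign, since the difference was -0.32 without that library and 0.72 without PROM1 library 1. The authors' deposited table gives Abcg1 6.93 FPKM in the PROM1 group and 5.30 FPKM in the control group, with q = 0.865. That control value lies above both control libraries, so it is not their mean.

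Apoe, the apolipoprotein that carries cholesterol between glia and neurons, was read through its 1 listed transcript alone. It had 3.28 and 0.515 FPKM in PROM1 libraries 1 and 2, against 2.22 and 3.38e-06 FPKM in control libraries 1 and 2. The libraries numbered 1 were the higher in both groups, and the groups overlap. Its log2 difference was 0.51 ± 0.76 (SE, n = 2 each, limma adjusted p = 0.967), with a 95% confidence interval from -1.41 to 2.42.

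The spread of Apoe within each group, 1.50 on the log2 scale between the PROM1 libraries and 1.68 between the control libraries, was exceeded by 3.4% and 2.6% of tested genes. Without control library 1 its difference was 1.35 and without PROM1 library 2 it was 1.25, while it was -0.34 without control library 2 and -0.24 without PROM1 library 1. With a pseudocount of 0.1 in place of 1 it was 1.58. No direction can be given for this transcript.

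Apod, the lipocalin, had 4.38 and 5.31 FPKM in PROM1 libraries 1 and 2, against 6.61 and 10.7 FPKM in control libraries 1 and 2. The groups do not overlap, and the nearest values of the groups are 5.31 and 6.61 FPKM. The means were 4.84 ± 0.655 FPKM in the PROM1 libraries and 8.67 ± 2.92 FPKM in the control libraries (SD, n = 2 each), or 1.62-fold lower on the log2(FPKM + 1) scale. The log2 difference was -0.70 ± 0.30 (SE, limma adjusted p = 0.939), with a 95% confidence interval from -1.46 to 0.07. A total of 1086 tested genes (10.7%) differed by at least as much. Apod stayed lower without each library in turn, at -1.01 without control library 1 and -0.39 without control library 2. The authors' deposited table gives Apod 6.94 FPKM in the PROM1 group and 11.2 FPKM in the control group, with q = 0.865. Each group value lies above both library values of its group, so it is not their mean.

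**Figure D3:**
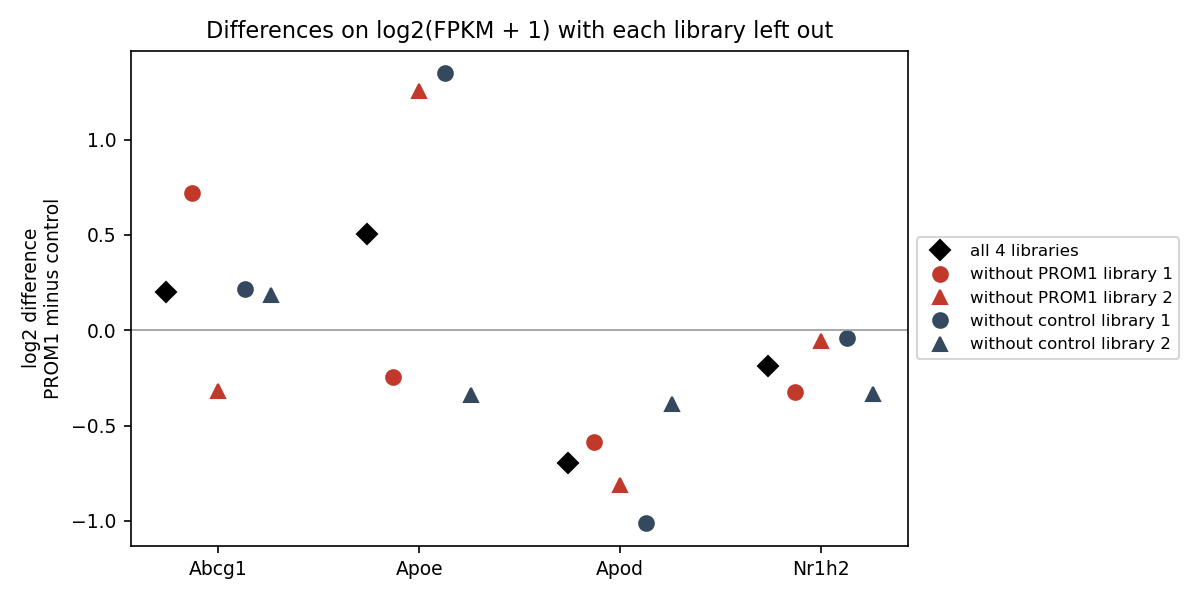
Log2 difference of PROM1 minus control on log2(FPKM + 1) (vertical axis) for Abcg1, Apoe, Apod and Nr1h2 with all 4 libraries (black diamonds) and without each library in turn (red, a PROM1 library left out; dark blue, a control library left out). Apod stays between -1.01 and -0.39 and Nr1h2 between -0.34 and -0.04, while Abcg1 and Apoe fall on both sides of 0.

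Because Apod and Apoe are also made by glia and fibroblasts, markers of other cells were summed in the same libraries. Of 14 glia markers 6 were listed, and their sum was 49.2 and 51.1 FPKM in the PROM1 libraries, against 81.0 and 60.9 FPKM in the control libraries. Of these 6, 5 had lower means and 1 a higher one in PROM1 cultures, where 53.5% of tested genes were lower. None was called and 1 had an unadjusted p under 0.05 (limma), where 4.7% of tested genes had. The median log2 difference was -0.15. The PROM1 pair was the lower without overlap in 2 of the 6 (33.3%), Pmp22 and Mbp, and the higher in 0. All tested genes gave 17.5% and 16.5%.

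Pmp22, a myelin protein gene, was the most abundant of these markers, with 18.8 and 20.7 FPKM in the PROM1 libraries, against 44.9 and 28.8 FPKM in the control libraries. Mbp, which encodes myelin basic protein, had 12.9 and 15.5 FPKM in the PROM1 libraries, against 15.9 and 16.8 FPKM in the control libraries. S100b, a calcium-binding protein of glia, overlapped, with 10.7 and 6.82 FPKM in the PROM1 libraries and 13.8 and 6.58 FPKM in the control libraries. Sox10, the defining transcription factor of the glial lineage and here the least abundant of the 6, was at 0.984 and 1.32 FPKM in the PROM1 libraries, against 0.706 and 1.75 FPKM in the control libraries. Without Pmp22, a sum added after seeing the data, the other 5 averaged 30.4 FPKM in the PROM1 libraries and 34.1 FPKM in the control libraries, a gap of -3.70 FPKM. The mean gap of the sum over all 6, PROM1 minus control, was -20.8 FPKM. That gap was -10.8 FPKM without control library 1 and -30.8 FPKM without control library 2, also added after seeing the data. Sox10 and Glul, a glutamine synthetase, had log2 differences of -0.01 ± 0.41 and 0.07 ± 0.25 (SE). The part of glia in the Apod values was not tested.

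Of 9 fibroblast markers Col1a1, Col1a2 and Fbln1 were listed, and they summed to 7.94 and 8.48 FPKM in the PROM1 libraries, against 2.67 and 4.37 FPKM in the control libraries, with 0 of 3 called and 1 at an unadjusted p under 0.05 (limma). Col1a1 had 3.33 and 4.28 FPKM in the PROM1 libraries, against 0.545 and 1.24 FPKM in the control libraries. Col1a2 had 1.32 and 2.34 FPKM in the PROM1 libraries, against 0.302 and 0.694 FPKM in the control libraries. The PROM1 pair was thus the higher without overlap in 2 of the 3 (66.7%), where all tested genes gave 16.5%. Fbln1 overlapped, with 3.29 and 1.85 FPKM in the PROM1 libraries and 1.82 and 2.44 FPKM in the control libraries. Of 8 macrophage markers C1qb and Aif1 were listed, with sums of 1.79 and 1.99 FPKM in the PROM1 libraries, against 3.80 and 3.51 FPKM in the control libraries. The lower sum came from C1qb, whose PROM1 values of 0.339 and 1.16 FPKM lay below its control values of 2.30 and 3.51 FPKM. C1qb was not called, with an unadjusted p of 0.0299 (limma). Aif1 was under the level tested and overlapped, and its mean was higher under PROM1 virus (1.14 FPKM) than under control virus (0.749 FPKM). None of the 5 endothelial markers was analysed here. No listed marker of these lists was at 0 in all 4 libraries.

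The exporters and stores that work beside Abcg1 differed in both directions. Of 16 genes of efflux and storage 10 were tested, with 5 higher, 5 lower and 0 called (limma), and 1 had an unadjusted p under 0.05. Their median log2 difference was -0.03, and that of all tested genes was -0.03. The PROM1 pair was the lower without overlap in 3 of the 10 (30.0%) and the higher in 1 (10.0%). All tested genes gave 17.5% and 16.5%. Abcg4, the related exporter enriched in neurons, was far more abundant per length than Abcg1, with 71.3 and 54.1 FPKM in the PROM1 libraries and 77.9 and 54.5 FPKM in the control libraries. Abca1, which loads sterol onto apolipoproteins, was under the level tested, with 1.23 and 0.601 FPKM in the PROM1 libraries, against 1.14 and 0.629 FPKM in the control libraries.

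Within the same list the largest difference was that of Scarb1, a receptor for high-density lipoprotein, with 19.7 and 12.9 FPKM in the PROM1 libraries, against 9.60 and 9.04 FPKM in the control libraries. The PROM1 libraries were the higher pair, as in 16.5% of tested genes, and the log2 difference was 0.72 ± 0.27 (SE, limma; not called). Abca5, a transporter of the ABCA family, had 3.23 and 3.98 FPKM in the PROM1 libraries and 3.36 and 1.71 FPKM in the control libraries. Npc1 and Npc2, which move cholesterol out of lysosomes, had log2 differences of 0.01 ± 0.24 and -0.27 ± 0.25 (SE). The PROM1 libraries were the lower pair for Npc2, while the groups of Npc1 overlap. Soat1, which esterifies cholesterol for storage, was under the level tested, at no more than 1.03 FPKM in any library.

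The partners of Nr1h2 did not pass the test either. Of 12 receptor and coregulator genes 10 were tested, with 6 higher, 4 lower and 0 called (limma; 0 with an unadjusted p under 0.05), and the median log2 difference was 0.11. The groups did not overlap for 5 of the 10, with the PROM1 pair higher in 4 (40.0%) and lower in 1 (10.0%), where all tested genes gave 16.5% and 17.5%. Rxra, a retinoid X receptor, had 4.23 and 4.57 FPKM in the PROM1 libraries, against 3.16 and 3.42 FPKM in the control libraries, and Rxrb had a log2 difference of 0.20 ± 0.33 (SE). The corepressor Ncor1 had 30.1 and 22.5 FPKM in the PROM1 libraries, against 35.9 and 32.6 FPKM in the control libraries. Nr1h3, the gene of LXR alpha, and Rxrg were not analysed here.

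Genes that LXR is known to induce differed in both directions, with fewer of them higher. Of 13 such genes 8 were tested, Abcg1 and Apoe among them. Of these, 3 were higher, 5 lower, 0 called and 1 at an unadjusted p under 0.05 (limma), and the median log2 difference was -0.29. Without Abcg1 and Apoe, 1 of the other 6 was higher and 5 were lower, with a median of -0.31, where 53.5% of tested genes were lower. The PROM1 pair was the lower without overlap in 3 of the 8 (37.5%), against 17.5% of tested genes, and the higher in 0. Smpdl3a, a phosphodiesterase of the sphingomyelinase family, had 1.07 and 1.80 FPKM in the PROM1 libraries, against 2.33 and 6.29 FPKM in the control libraries. The other members without overlap were Scd1, a fatty acid desaturase (log2 difference -0.75 ± 0.23, SE), and Fasn, the fatty acid synthase (-0.33 ± 0.19, SE), which are also targets of the sterol regulatory element-binding proteins. Srebf1, which encodes one of those proteins, had 8.91 and 10.1 FPKM in the PROM1 libraries and 13.8 and 9.97 FPKM in the control libraries. Mylip, a ubiquitin ligase that acts on lipoprotein receptors, was under the level tested, at no more than 1.05 FPKM in any library.

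**Figure D4:**
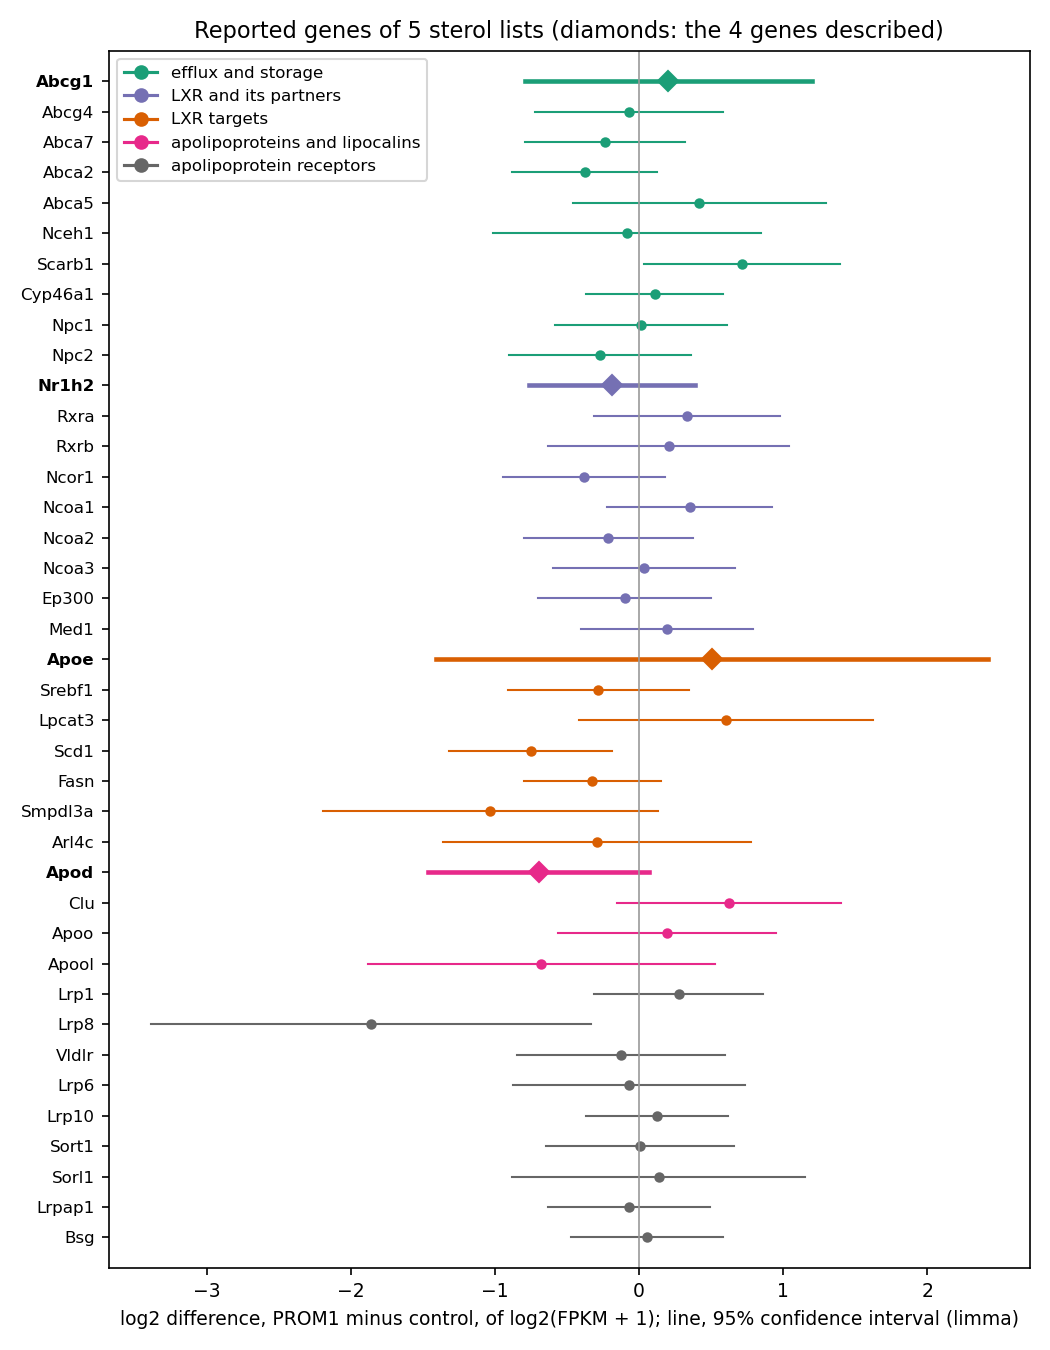
Log2 difference of PROM1 minus control on log2(FPKM + 1) with its 95% confidence interval (horizontal axis, limma) for the tested genes of 5 sterol lists that are reported here, coloured by list, with Abcg1, Nr1h2, Apoe and Apod as diamonds. The intervals of all 4 include 0, and Apoe has the widest among them, from -1.41 to 2.42.

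Among carriers, Clu, another apolipoprotein of the nervous system, stood opposite to Apod, with 11.1 and 13.1 FPKM in the PROM1 libraries, against 9.85 and 5.64 FPKM in the control libraries. Its log2 difference was 0.62 ± 0.31 (SE, limma; not called). Apool, a mitochondrial protein named for its likeness to apolipoproteins, had a log2 difference of -0.68 ± 0.48 (SE). Of 13 apolipoprotein and lipocalin genes 5 were tested, Apoe and Apod included, and 3 were higher, 2 lower and 0 called (limma; 0 with an unadjusted p under 0.05), with a median log2 difference of 0.19.

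Receptors that take up apolipoprotein particles were counted in the same way. Of 14 genes 11 were tested, with 6 higher, 5 lower and 0 called (limma), and the median log2 difference was 0.01. Of the 11, 3 had an unadjusted p under 0.05 (limma), Scarb1 and Lrp8 among them, where 4.7% of tested genes had. Scarb1 is also counted in the efflux and storage list. The PROM1 pair was the higher without overlap in 3 (27.3%) and the lower in 2 (18.2%). All tested genes gave 16.5% and 17.5%. Lrp8, listed by a non-coding accession alone, had a log2 difference of -1.86 ± 0.61 (SE), which does not describe the mRNA of the receptor. Lrp1, a large endocytic receptor for Apoe, had 6.47 and 6.86 FPKM in the PROM1 libraries, against 5.08 and 5.61 FPKM in the control libraries, and Vldlr had a log2 difference of -0.13 ± 0.29 (SE).

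For each gene, the tested genes with the most similar profile were sought by the root mean square (RMS) difference of centred log2(FPKM + 1) values over the 4 libraries, with no test. Nearest to Apod were the stathmin Stmn4 (RMS 0.01), the Rab effector Sytl2 (0.05) and Sra1 (0.06), and 17 of 10107 genes lay within 0.1. Stmn4 had 9.61 and 11.2 FPKM in the PROM1 libraries, against 13.8 and 22.0 FPKM in the control libraries. Nearest to Abcg1 were Hacd1, a dehydratase of fatty acid elongation (0.03), Rad9b (0.06) and Nae1 (0.06), with 22 genes within 0.1. Hacd1 shared the high PROM1 library 2, with 32.3 and 63.3 FPKM in the PROM1 libraries, against 40.4 and 38.9 FPKM in the control libraries.

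The profile of Nr1h2 was the most common of the 4, with 538 genes within 0.1, and the nearest were Rcan3 (0.01), the microtubule protein gene Map2 (0.01) and Fundc2 (0.01). Nearest to Apoe were the nuclear receptor gene Nr1i3 (0.09), Eif4ebp3 (0.17) and Tcf3 (0.17), and 1 gene lay within 0.1. The 4 genes were not alike among themselves, with RMS differences from 0.45 between Apod and Nr1h2 to 1.18 between Apoe and Apod.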

How the data were processed

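The authors deposited 1 table of FPKM per transcript for 4 libraries, computed with Cufflinks per the file headers, beside 1 FPKM per group. Its p-values, q-values, −log10 p and log2 ratios come from the authors' own group comparison, per the file headers. CASAVA, TopHat2 and build mm9 are named in the submitters' processing notes. Annotation and strand handling were not given in the sources used here.

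Transcripts with a missing value (39) were left out, and FPKM was summed per symbol. Of 11258 genes, the 10108 averaging 1 FPKM or more entered limma 3.58.1 in R 4.3.3, fitted to log2(FPKM + 1) with a variance trend. That scale understates changes of low genes. Benjamini-Hochberg adjustment ran over all tested genes, with calls under 0.05. With 2 libraries against 2, the smallest two-sided p of an exact permutation test is 0.333. P-values measure the spread between these libraries.

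The fit was tested on simulated data. The members and lists were chosen with earlier results of these data known. Genes named are the 4 members, fixed partners, the 2 tested genes of each list with the largest difference, the 3 nearest profiles of each member, and the most abundant markers. Sox10 and Glul were named beside them after their values were seen. Some genes under this rule are not reported here, while list counts and medians include every tested member. Transcript models came from GENCODE M21 and promoters from RefSeq, both of GRCm38, matched by accession and sequence. No mm9 coordinates were used. The 14 alternatives cover pseudocount, filter, scaling, transcript handling, variance trend, a replicate block and each library left out.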

Additional observations from a re-analysis of the deposited data

How the results depend on the processing

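Over 14 alternatives for each gene, none of the 4 was called by limma in any that could be run, with adjusted p from 0.722 to 1. Abcg1 and Apoe are under a mean of 5 FPKM, so that filter gave them no value. Apod was lower in all 14 of its alternatives. Leaving out each library in turn gave log2 differences from -1.01 to -0.39 for Apod, -0.34 to -0.04 for Nr1h2, -0.32 to 0.72 for Abcg1 and -0.34 to 1.35 for Apoe. The sign of Abcg1 turned without PROM1 library 2, and that of Apoe without control library 2 or PROM1 library 1. In the fit per transcript NM_001285517 of Nr1h2 turned to 0.12. The count of called genes was 2, and it was 0 in the fit per transcript and 0 on mRNA accessions alone, where fewer records were tested; it ran from 2 to 15 without each library in turn. With the number in the titles as a replicate block, 2 genes were called and Apod had an adjusted p of 0.745 (limma; 0.0457 unadjusted). Deviations of same-numbered libraries correlated at r = 0.14 across genes. That is from 2 pairs, and the labels do not say what a number marks, so the numbers were not taken to pair the libraries. The libraries numbered 2 held more transcripts at 0 (237 and 283 in PROM1 and control) than those numbered 1 (121 and 89). The depth is unknown.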
